A study of Mus musculus with 14 samples.

Results

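Bone marrow and hypothalamus of irradiated mice were compared for how the level of each microRNA (miRNA) differed between 8 Gy and 0 Gy of gamma rays. In each tissue the amifostine arm and the PBS arm, both injected into the abdomen (i.p.), gave 1 difference of 8 Gy minus 0 Gy each, so that 2 bone marrow differences were set against 2 hypothalamus differences. The miRNAs compared were those that the scanner software called detected on at least 2 of the 4 arrays of each tissue. These were 345 of the 1247 miRNAs on the array, and 277 of them were detected on all 8 arrays. A further 36 miRNAs were detected in bone marrow but not in hypothalamus by the same count, and 199 in hypothalamus but not in bone marrow.

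All mice were male C57BL/6, 6 to 8 weeks old, and tissue was taken 12 h after exposure. The 4 bone marrow groups and the 4 hypothalamus groups were amifostine with 8 Gy, PBS with 8 Gy, amifostine with 0 Gy and PBS with 0 Gy. Amifostine, a thiol prodrug that protects cells from radiation, was injected at 10 mg/kg 0.5 h before exposure. RNA of 3 mice was pooled for every array and every group had 1 array, so each value stands for 1 pool. The p-values rest on 1 residual SD of 0.44, shared by all miRNAs and taken from the gaps between the 2 arms of each tissue. How far the arms of a single miRNA differed from each other does not set its own p-value or SE. Bone marrow also had PBS given into the stomach (i.g.), CBLB502, a flagellin derivative, and nilestriol, an oestrogen, each at both doses; these 3 arms were outside the comparison and are given only beside it.

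The tissue labels were checked against markers. The 6 bone marrow markers, among them miR-223-3p of granulocytes and miR-451a of red cells, were all detected in bone marrow, against 4 of 6 in hypothalamus, where miR-142-5p and miR-144-3p were not detected. Of the 9 hypothalamus markers, 3 were detected in bone marrow (miR-128-3p, miR-7a-5p and miR-338-3p), against 9 of 9 in hypothalamus, and the neuronal miR-124-3p and miR-9-5p were not detected on any matched bone marrow array. The matched bone marrow arrays had 332 to 403 detected miRNAs and the hypothalamus arrays 478 to 582. In bulk tissue, fewer cells of a type and less of a miRNA per cell cannot be told apart.

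The 4 hypothalamus arrays did not pair by dose or by arm. Over the 345 miRNAs, the SD of the log2 difference between 2 arrays was 0.34 for PBS with 8 Gy against amifostine with 0 Gy, and 0.32 for amifostine with 8 Gy against PBS with 0 Gy. The other 4 pairs of hypothalamus arrays stood apart by SDs of 0.53 to 0.62. The labels were kept as given, and whether the arrays carry the right labels was not tested. The amifostine arm of hypothalamus was on slide 3, the amifostine arm of bone marrow on slide 2, and both PBS arms on slide 1, so each difference of 8 Gy minus 0 Gy was taken within 1 slide. Results that turn on 1 hypothalamus arm are given with and without it.

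miRNAs are short RNAs that lower the output of messenger RNAs whose sites match the miRNA's seed, the bases 2 to 8 from its 5′ end, so miRNAs with the same seed are read as a family. Ionizing radiation breaks DNA and activates the transcription factor p53, which directly raises transcription of the miR-34 genes. Bone marrow holds dividing blood precursors that are lost soon after whole-body irradiation, while most cells of the hypothalamus are neurons and glia that no longer divide. In marrow, miR-451a and miR-486 build up as red cells mature, and miR-181 family members are high in lymphocyte precursors.

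The mature sequences on which the comparison turns are shown first, with the seed in capitals, from RefSeq (build GRCm38.p6). The first are miR-34a-5p, a p53 target (chr4:150068473-150068494, plus strand), miR-451a (chr11:78073186-78073207, plus strand) and miR-3474 (chr2:158638583-158638604, plus strand), which rose in bone marrow.
miR-34a-5p: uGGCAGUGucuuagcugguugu
miR-451a: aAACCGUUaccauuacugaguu
miR-3474: cCCUGGGAggagacguggauuc
miR-30a-5p (chr1:23272274-23272295, plus strand) and miR-193a-3p (chr11:79712009-79712030, plus strand) were among the 12 highest tissue differences.
miR-30a-5p: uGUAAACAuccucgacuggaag
miR-193a-3p: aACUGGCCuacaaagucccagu
miR-181a-5p and miR-181b-5p share a seed and lie side by side at 2 loci on the plus strand, miR-181a-5p at chr1:137966468-137966490 and chr2:38852741-38852763, miR-181b-5p at chr1:137966650-137966673 and chr2:38853845-38853868. They are shown because miR-181b-5p lay lower in bone marrow.
miR-181a-5p: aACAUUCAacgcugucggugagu
miR-181b-5p: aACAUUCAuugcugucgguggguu
miR-16-5p and let-7c-5p stand for the miR-15/16 and let-7 seed families.
miR-16-5p: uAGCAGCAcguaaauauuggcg
let-7c-5p: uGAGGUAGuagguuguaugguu
miR-3963 (chr3:151023839-151023857, minus strand), miR-3968 (chr11:115447969-115447989, minus strand) and miR-5100 (chr11:60728698-60728718, plus strand) lay higher at 8 Gy in bone marrow and lower in hypothalamus, and share the letters AUCCCA.
miR-3963: uGUAUCCCacuucugacac
miR-3968: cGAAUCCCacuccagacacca
miR-5100: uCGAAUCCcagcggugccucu
Of the 345 miRNAs, 266 had a mature sequence under their own name in the table. In 263 of these every array probe was complementary to the 3′ end of that sequence; miR-181b-5p was an exception, with a RefSeq sequence longer than the probes' target.

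Values are log2 of the background-subtracted signal divided by the array's 75th percentile of commonly detected miRNAs; a level is 1 such value, and a response is the level at 8 Gy minus the level at 0 Gy in the same arm. A positive tissue difference means that the mean bone marrow response lay above the mean hypothalamus response. In single arms the spread of responses over the 345 miRNAs was similar in the tissues: the SD was 0.68 with amifostine and 0.61 with PBS in bone marrow, against 0.61 with amifostine and 0.53 with PBS in hypothalamus. Responses past 1 in either direction numbered 44 with amifostine and 49 with PBS in bone marrow, against 22 with amifostine and 11 with PBS in hypothalamus. The 2 arms had the same sign for 259 miRNAs in bone marrow (75.1%) and for 34 in hypothalamus (9.86%), and the opposed hypothalamus arms largely cancelled in their mean. The mean of the 2 arms was past 1 in either direction for 32 miRNAs in bone marrow and for 1 in hypothalamus (miR-200c-3p). Across the 345 miRNAs the mean response had an SD of 0.57 in bone marrow and 0.17 in hypothalamus.

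No miRNA passed the test of the tissue difference (limma, adjusted p under 0.05; 0% of 345), and the lowest adjusted p was 0.178. At an unadjusted p under 0.05 there were 15 miRNAs (4.35%), 11 with the higher response in bone marrow (3.19%) and 4 with the lower (1.16%). Within bone marrow, 5 miRNAs passed (1.45%), all higher at 8 Gy: miR-34a-5p, miR-451a, miR-3107-5p, miR-5115 and miR-3474. These calls depended on the processing and the arms: 0 miRNAs passed in bone marrow with the scaling on all miRNAs, no scaling, no detection filter, a detection filter over either tissue or a plain linear model. Without the bone marrow amifostine arm 0 passed, without the bone marrow PBS arm 1 (miR-5115), and without either hypothalamus arm 68, the 5 among them (limma). Within hypothalamus none passed by limma (0%); 1 did at an unadjusted p under 0.05 (0.29%), miR-200c-3p. A miRNA past the test in bone marrow and not in hypothalamus is not thereby shown to differ between them, and the tissue difference of these 5 did not pass.

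Both bone marrow responses lay above both hypothalamus responses for 81 miRNAs (23.5%), and below both for 24 (6.96%), together 105 (30.4%). Among the 277 detected on all arrays it lay above for 67 (24.2%) and below for 13 (4.69%). The excess above the hypothalamus moved with the scaling. The median tissue difference over all miRNAs was 0.25; it was 0.11 when arrays were scaled on all miRNAs, 0.16 after quantile normalization, 0.01 in the authors' value table and 0 with no scaling. The share of the separated miRNAs that lay above was 77.1% in the main scaling, against 60.3% with the scaling on all miRNAs and 56% in the authors' value table. It was 67.4% after quantile normalization, 69.7% with no scaling and 77.0% with the trend by probe GC content removed.

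**Figure D1:**
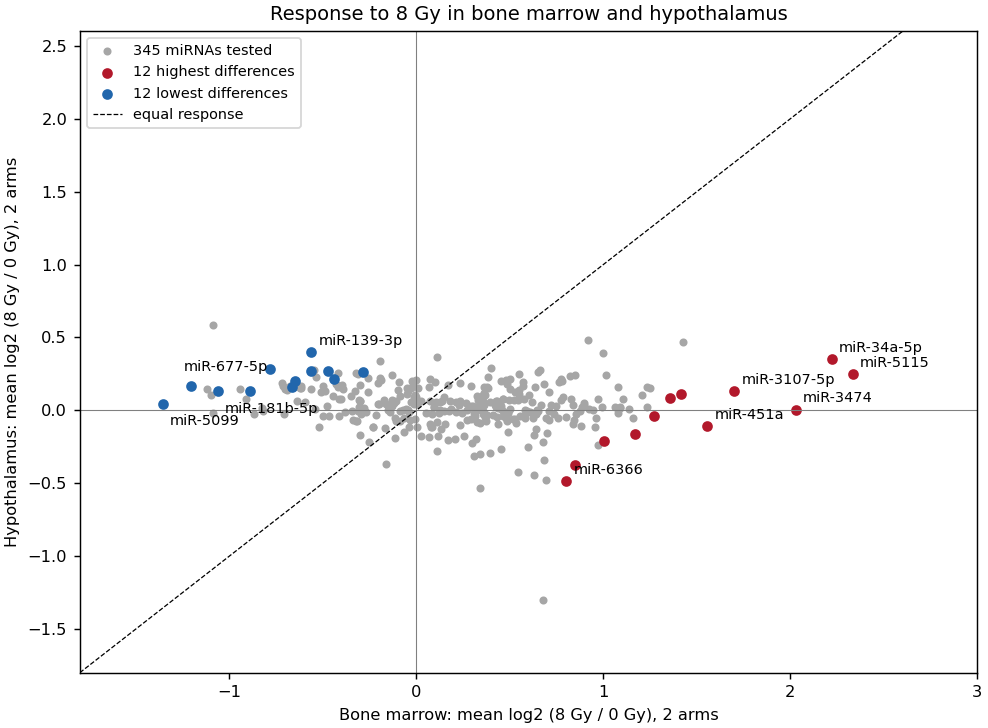
Mean response to 8 Gy (log2 of 8 Gy over 0 Gy, 2 arms) of 345 miRNAs in bone marrow (x axis) and hypothalamus (y axis); the dashed line marks equal responses, and colours mark the 12 highest and 12 lowest tissue differences among miRNAs with separated responses on all 8 arrays. Means spread along the bone marrow axis with an SD of 0.57 and along the hypothalamus axis with 0.17, where opposed arms cancel; the single-arm SDs are 0.61 to 0.68 in bone marrow and 0.53 to 0.61 in hypothalamus.

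miR-34a-5p, the p53-induced tumour suppressor miRNA, rose in irradiated bone marrow. Its level at 8 Gy in bone marrow was -0.36 with amifostine and -0.27 with PBS, against -2.77 with amifostine and -2.30 with PBS at 0 Gy. In hypothalamus its level at 8 Gy was 0.64 with amifostine and 0.87 with PBS, against 0.70 with amifostine and 0.10 with PBS at 0 Gy. The doses did not overlap in bone marrow and overlapped in hypothalamus, where every level stood above every bone marrow level. The bone marrow response was 2.22 ± 0.44 (SE from the shared SD, 2 arms), or 4.66-fold (limma, adjusted p = 1e-04). The hypothalamus response was 0.35 ± 0.44, with a 95% interval of -0.51 to 1.22. The tissue difference was 1.87 ± 0.62, with an interval of 0.65 to 3.09 (limma, adjusted p = 0.24). An exact two-sided permutation test of 2 responses against 2 gave p = 0.333, the smallest it can give. The other bone marrow arms responded by 1.99 with CBLB502, 2.65 with nilestriol and 1.84 with PBS i.g., so all 5 bone marrow responses lay above both hypothalamus responses. Over the alternatives tried the tissue difference stayed between 1.11 and 2.47. Without the hypothalamus PBS arm it was 2.28 and passed, and without the hypothalamus amifostine arm it did not pass (limma). Both of these fits take their error from bone marrow alone.

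The other p53 responsive miRNAs measured in both tissues were miR-107-3p, miR-192-5p and miR-194-5p, 4 of the list's 10 with miR-34a-5p. miR-194-5p, which targets the p53 antagonist MDM2 in human myeloma cells, had bone marrow responses of 1.08 with amifostine and 0.68 with PBS, against hypothalamus responses of -0.43 with amifostine and 0.22 with PBS. Its tissue difference of 0.99 ± 0.62 did not pass (limma, adjusted p = 0.88). The list's median tissue difference was 0.79, beside 0.25 over all miRNAs. Separated responses, both with bone marrow above, were found for 2 of 4 members, miR-34a-5p among them, beside 81 of all 345 miRNAs (23.5%).

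The erythroid miRNAs measured in both tissues were miR-451a, which is needed for red cell maturation under stress, and miR-3107-5p. The gene Mir3107, also named mir-486b, lies within the span of Mir486 inside the erythroid ankyrin gene Ank1 (chr8:23142573-23142662), so signal from miR-486 and miR-3107 may be shared and was not separated here. No mature sequence was listed under the name miR-3107-5p, so its longer array probe is shown, and the probe's match to the miRNA was not checked.
miR-3107-5p probe: ctcggggcagctca
miR-451a had a bone marrow level at 8 Gy of 8.20 with amifostine and 8.03 with PBS, against 6.41 with amifostine and 6.71 with PBS at 0 Gy. Its hypothalamus level at 8 Gy was 1.03 with amifostine and 1.09 with PBS, against 1.37 with amifostine and 0.96 with PBS at 0 Gy. The doses separated in bone marrow alone, where the miRNA rose by 1.56 ± 0.44, or 2.94-fold (limma, adjusted p = 0.030). The hypothalamus response was -0.11 ± 0.44 (95% interval -0.97 to 0.76). The tissue difference was 1.66 ± 0.62, with an interval of 0.44 to 2.89 (limma, adjusted p = 0.441). Over the alternatives it ranged from 1.19 to 2.13. It passed with normexp background correction (limma, adjusted p = 0.044). Without the hypothalamus PBS arm it was 1.90 and passed, and without the hypothalamus amifostine arm it did not pass (limma).

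miR-3107-5p had a bone marrow level at 8 Gy of 2.99 with amifostine and 2.90 with PBS, against 1.0 with amifostine and 1.49 with PBS at 0 Gy. Its hypothalamus level at 8 Gy was -3.10 with amifostine and -2.88 with PBS, against -2.87 with amifostine and -3.38 with PBS at 0 Gy. It rose 3.25-fold in bone marrow (1.70 ± 0.44; limma, adjusted p = 0.011), while its hypothalamus response was 0.13 ± 0.44 and its tissue difference 1.57 ± 0.62 (limma, adjusted p = 0.595). In the 3 other bone marrow arms miR-451a responded by 0.92 to 2.03 and miR-3107-5p by 0.86 to 1.84. The summed relative signal of the 6 erythroid miRNAs on the array was 305 with amifostine and 273 with PBS at 8 Gy in bone marrow, against 87.8 with amifostine and 109 with PBS at 0 Gy. In hypothalamus the same sum lay between 2.05 and 2.72 on all 4 arrays. On every array of both tissues miR-451a made up most of the sum, which therefore adds little to the levels of miR-451a itself. The part of blood left in the hypothalamus in these values was not tested.

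**Figure D2:**
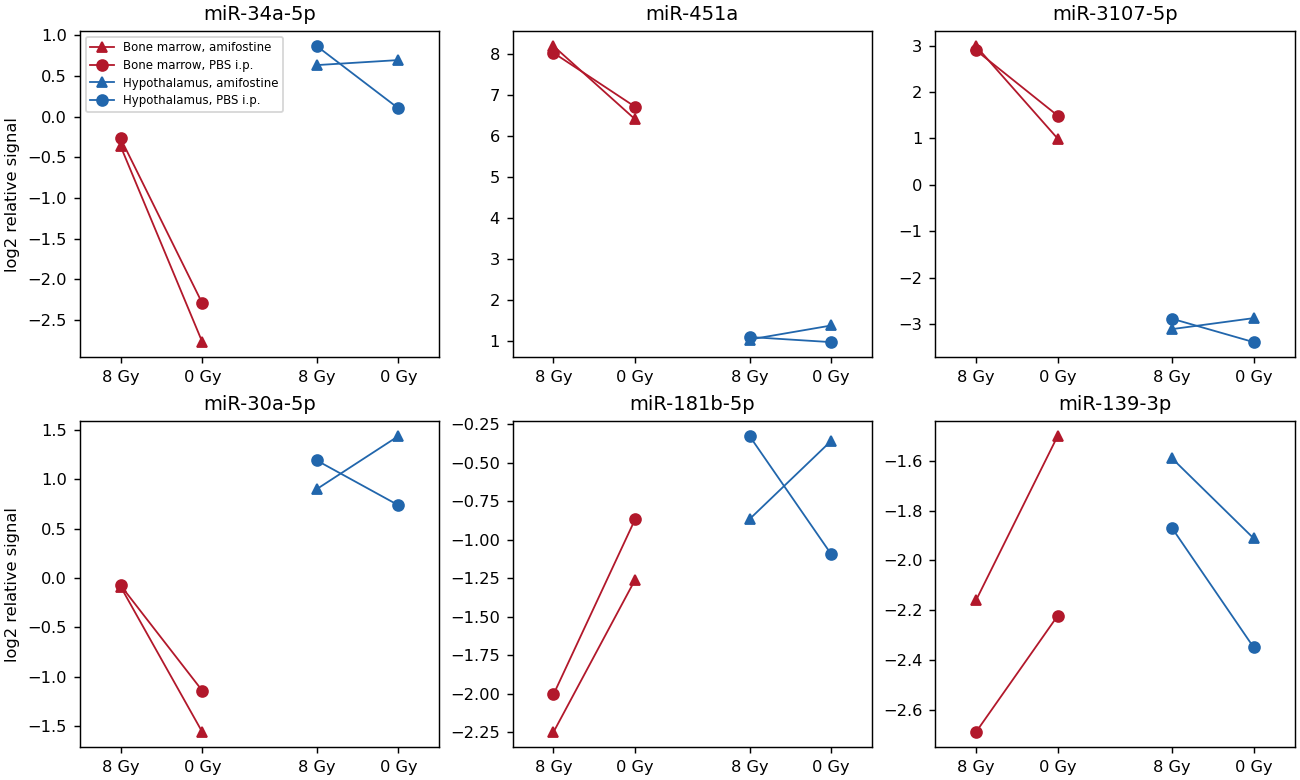
Level (log2 signal relative to the array's 75th percentile) of 6 miRNAs at 8 Gy and 0 Gy in bone marrow (red) and hypothalamus (blue), 1 array per point, with triangles for amifostine and circles for PBS and lines joining the doses of an arm. In miR-34a-5p, miR-451a, miR-3107-5p and miR-30a-5p both bone marrow lines run higher at 8 Gy, and in miR-181b-5p and miR-139-3p lower, while the hypothalamus lines cross except for miR-139-3p.

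miR-5115 and miR-3474, late annotated miRNAs with little known of their roles, had the highest tissue differences of all and rose in bone marrow. miR-5115 had a bone marrow level at 8 Gy of -1.18 with amifostine and -2.72 with PBS, against -4.46 with amifostine and -4.10 with PBS at 0 Gy. In hypothalamus it stood at -3.91 with amifostine and -4.12 with PBS at 8 Gy, against -3.58 with amifostine and -4.94 with PBS at 0 Gy. The bone marrow response was 2.33 ± 0.44 (limma, adjusted p = 5.3e-05) and the tissue difference 2.09 ± 0.62 (limma, adjusted p = 0.178). The response was not shared by all bone marrow arms: it was 4.40 with CBLB502, -0.39 with nilestriol and -0.80 with PBS i.g.

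miR-3474 had a bone marrow level at 8 Gy of -1.32 with amifostine and -0.40 with PBS, against -2.74 with amifostine and -3.04 with PBS at 0 Gy. In hypothalamus its responses had opposite signs, 0.93 with amifostine and -0.92 with PBS. The bone marrow response was 2.03 ± 0.44 (limma, adjusted p = 5.5e-04) and the tissue difference 2.02 ± 0.62 (limma, adjusted p = 0.178). Nilestriol again gave a response below 0 in bone marrow, of -0.88, against 0.96 with CBLB502 and 2.26 with PBS i.g.

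**Figure D3:**
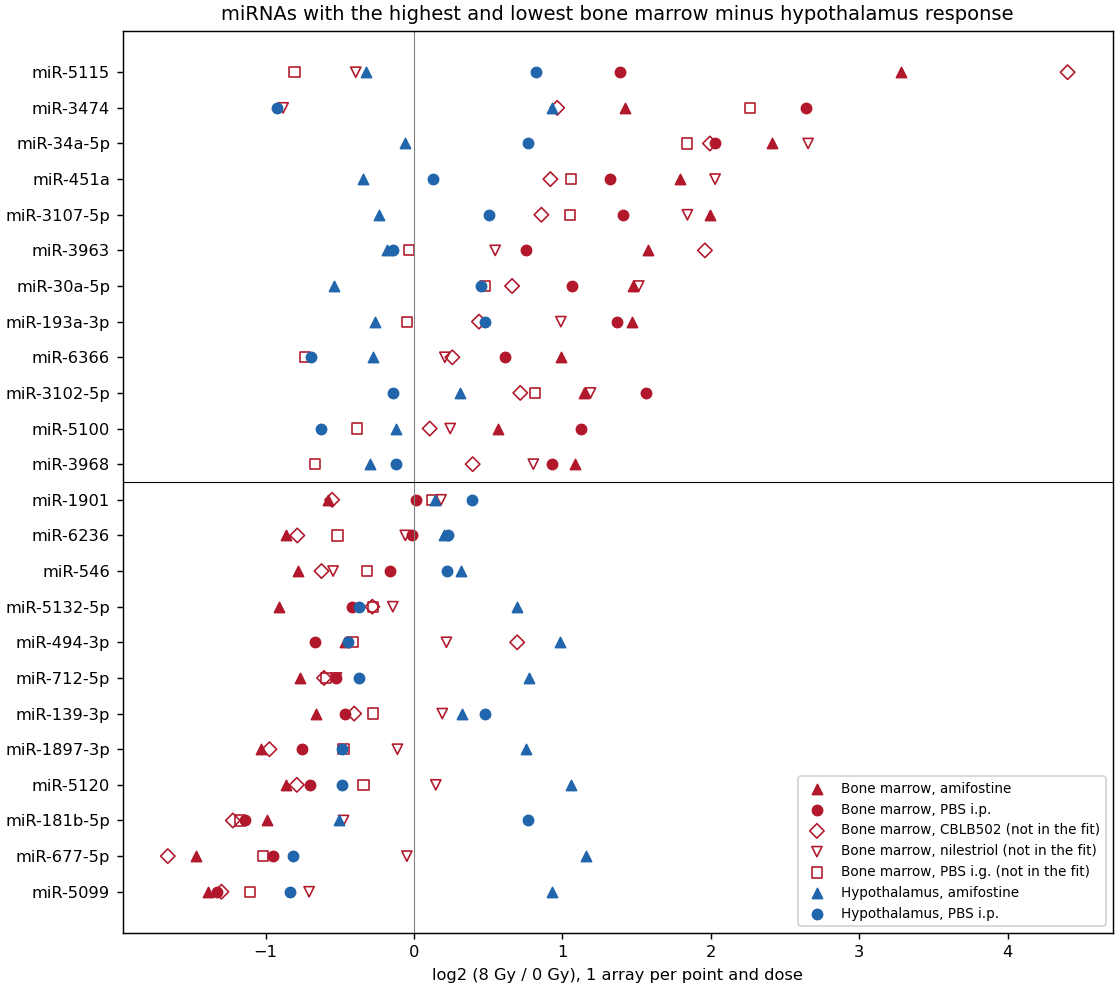
Response to 8 Gy (log2 of 8 Gy over 0 Gy) by arm for the 12 highest (above the line) and 12 lowest (below it) tissue differences among miRNAs detected on all 8 arrays with separated responses; filled symbols are the 4 arms compared and open symbols the 3 other bone marrow arms. miR-34a-5p is at 1.84 or more in all 5 bone marrow arms, and miR-5115 runs from -0.80 to 4.40.

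The other 7 of the 12 highest did not pass in bone marrow (limma). miR-30a-5p, an inhibitor of autophagy through Beclin 1, had a bone marrow level at 8 Gy of -0.09 with amifostine and -0.07 with PBS, against -1.56 with amifostine and -1.14 with PBS at 0 Gy. Its hypothalamus level at 8 Gy was 0.90 with amifostine and 1.19 with PBS, against 1.44 with amifostine and 0.74 with PBS at 0 Gy. The tissue difference was 1.31 ± 0.62 (95% interval 0.09 to 2.53; limma, adjusted p = 0.87), and the miRNA had a response above 0 in all 5 bone marrow arms. Its partner strand miR-30a-3p was detected on 2 of 2 bone marrow arrays at 8 Gy, against 0 of 2 at 0 Gy. This is at least 2.15-fold higher there, taken against the floor, and it was detected on all 4 hypothalamus arrays.

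miR-193a-3p, which targets the growth factor receptor KIT in human leukaemia cells, had bone marrow responses of 1.47 with amifostine and 1.37 with PBS, against hypothalamus responses of -0.26 with amifostine and 0.48 with PBS. Its tissue difference was 1.31 ± 0.62 (limma, adjusted p = 0.87). miR-3102-5p, a miRNA cut from a short intron, had bone marrow responses of 1.15 with amifostine and 1.56 with PBS, against 0.31 with amifostine and -0.14 with PBS in hypothalamus. The hypothalamus responses of both miRNAs thus lay on both sides of 0.

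Just below the 12 stood miR-22-3p, a regulator of blood stem cell renewal, and miR-186-5p. miR-22-3p had bone marrow responses of 1.46 with amifostine and 1.0 with PBS, against -0.49 with amifostine and 0.54 with PBS in hypothalamus. Its tissue difference of 1.21 ± 0.62 equalled that of miR-186-5p at 2 decimals, and among the alternatives tried both passed only without the hypothalamus PBS arm (limma, adjusted p = 0.0107 for miR-22-3p and 0.0172 for miR-186-5p).

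miR-3963, miR-3968, miR-5100 and miR-6366 lay higher at 8 Gy in both bone marrow arms and lower in both hypothalamus arms. Across all miRNAs 9 did so (2.61%), and 8 did the reverse (2.32%). miR-3963 had bone marrow responses of 1.58 with amifostine and 0.76 with PBS, against hypothalamus responses of -0.18 with amifostine and -0.14 with PBS. miR-3968 had 1.08 with amifostine and 0.93 with PBS in bone marrow, against -0.30 with amifostine and -0.12 with PBS in hypothalamus. miR-5100 had 0.57 with amifostine and 1.13 with PBS in bone marrow, against -0.12 with amifostine and -0.63 with PBS in hypothalamus. These 3 were also the only ones of the 266 miRNAs with a sequence that hold the letters AUCCCA (1.13%), starting at base 4 of miR-3963 and miR-3968 and at base 5 of miR-5100; 7 of the 1679 mature mouse miRNAs in the table hold them (0.417%). The letters were searched on the miRNA strand alone and were chosen after the values had been seen, so the match is a description. Their bone marrow responses with PBS i.g. were below 0, at -0.03 for miR-3963, -0.67 for miR-3968 and -0.39 for miR-5100, unlike those with PBS i.p..

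miR-181b-5p, a miRNA of lymphocyte development, was the third of the 12 lowest tissue differences among miRNAs detected on all 8 arrays with separated responses. Its bone marrow level at 8 Gy was -2.25 with amifostine and -2.0 with PBS, against -1.26 with amifostine and -0.87 with PBS at 0 Gy. Its hypothalamus level at 8 Gy was -0.87 with amifostine and -0.33 with PBS, against -0.36 with amifostine and -1.09 with PBS at 0 Gy. Doses separated in bone marrow and overlapped in hypothalamus. The bone marrow response was -1.06 ± 0.44 (95% interval -1.93 to -0.20; limma, adjusted p = 0.19), and all 3 other bone marrow arms gave responses below 0, of -1.22 with CBLB502, -0.47 with nilestriol and -1.17 with PBS i.g. The tissue difference was -1.19 ± 0.62 (interval -2.41 to 0.03; limma, adjusted p = 0.87). Without the hypothalamus amifostine arm it was -1.83 and passed, and without the hypothalamus PBS arm it did not pass (limma).

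The other seed family members showed smaller tissue differences, of -0.70 for miR-181a-5p, -0.37 for miR-181d-5p and 0.12 for miR-181c-5p, and none passed (limma). miR-181a-5p had bone marrow responses of -0.54 with amifostine and -0.73 with PBS, against -0.57 with amifostine and 0.70 with PBS in hypothalamus, so that its amifostine arms alone differed by 0.03. miR-150-5p of mature lymphocytes had bone marrow responses of -0.42 with amifostine and -0.18 with PBS, against -0.55 with amifostine and 0.68 with PBS in hypothalamus. Over the 8 lymphoid miRNAs the median tissue difference was -0.37, beside 0.25 over all miRNAs. The response was larger in bone marrow for 1 of 8, beside 216 of all 345. For 2 of 8 the responses were separated, both with bone marrow below, beside 24 of all 345 (6.96%). The median of the 8 lay below 0 under each of the 6 scalings tried, from -0.82 to -0.37, but its arms did not share an order. The list's median responses were -0.17 with amifostine and -0.29 with PBS in bone marrow, against -0.49 with amifostine and 0.64 with PBS in hypothalamus, so that bone marrow lay below with PBS alone.

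Among miRNAs detected on all 8 arrays, miR-5099 and miR-677-5p had the lowest tissue differences. miR-5099 had a bone marrow level at 8 Gy of -0.90 with amifostine and -1.56 with PBS, against 0.49 with amifostine and -0.23 with PBS at 0 Gy. In hypothalamus its level at 8 Gy was -1.60 with amifostine and -2.15 with PBS, against -2.53 with amifostine and -1.31 with PBS at 0 Gy. The bone marrow response of -1.36 ± 0.44 missed the threshold (limma, adjusted p = 0.0835), was below 0 in all 5 bone marrow arms, and the tissue difference was -1.40 ± 0.62 (limma, adjusted p = 0.87). Its hypothalamus responses of 0.93 with amifostine and -0.84 with PBS cancelled in the mean.
miR-5099 probe: ggagcaccacatcg

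miR-677-5p, dim on every array, had bone marrow responses of -1.47 with amifostine and -0.95 with PBS, against hypothalamus responses of 1.16 with amifostine and -0.82 with PBS; its hypothalamus level with amifostine at 0 Gy was at the floor. Its tissue difference was -1.38 ± 0.62 (limma, adjusted p = 0.87). miR-5120, miR-1897-3p, miR-712-5p, miR-494-3p and miR-5132-5p had the same pattern, with both bone marrow responses below 0, hypothalamus responses above 0 with amifostine and below 0 with PBS, and tissue differences of -1.07 to -0.82. miR-139-3p, encoded within the phosphodiesterase gene Pde2a, differed from these: its responses were -0.66 with amifostine and -0.47 with PBS in bone marrow, against 0.32 with amifostine and 0.48 with PBS in hypothalamus. miR-546 and miR-6236 shared that sign pattern at low levels, and miR-1901 ended the list of 12 at -0.55.

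Both strands of miR-712, which mouse endothelium makes from the ribosomal RNA precursor, had lower responses in bone marrow than in hypothalamus. miR-712-3p, detected on 7 of 8 arrays, had bone marrow responses of -1.20 with amifostine and -0.98 with PBS, against 0.11 with amifostine and 1.06 with PBS in hypothalamus. Its tissue difference of -1.67 ± 0.62 was the lowest of all 345 (limma, adjusted p = 0.44). That difference passed without the hypothalamus amifostine arm, at -2.15, and did not pass without the hypothalamus PBS arm (limma). Its bone marrow level with PBS at 8 Gy was at the floor of -5.61, so that this response is a bound. In the authors' value table its tissue difference was -6.28 and did not pass (limma, adjusted p = 0.977).

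Seed families differed in how alike their members were: tissue differences ran from 0.26 to 0.50 in the let-7 seed, against -1.19 to 0.12 in the miR-181 seed. Of the 9 seeds with at least 3 members, 8 had a median tissue difference above 0, where 216 of all 345 miRNAs had one above 0 and their median was 0.25. The miR-181 seed had a median of -0.53. The miR-15/16 family, which restrains BCL2 and cyclins, had the largest median of these seeds. All 6 listed members, miR-497-5p among them, had the larger response in bone marrow, and the median tissue difference was 0.82. In 5 of 6 both bone marrow responses lay above both hypothalamus responses, beside 81 of all 345 miRNAs (23.5%). In the authors' value table the family's median was 0.365, beside 0.01 over all miRNAs. miR-16-5p had a bone marrow level at 8 Gy of 4.95 with amifostine and 4.89 with PBS, against 3.72 with amifostine and 4.23 with PBS at 0 Gy. Its hypothalamus responses were -0.60 with amifostine and 0.61 with PBS, and its tissue difference was 0.94 ± 0.62 (limma, adjusted p = 0.88). miR-322-5p of the same family, at 0.37, had the smallest difference. With PBS alone, on slide 1, the difference of miR-16-5p was 0.05, against 1.83 with amifostine alone on slides 2 and 3.

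The let-7 family, which restrains growth genes such as Lin28 and Ras, had 9 members, whose sequences are much alike. Tissue differences ran from 0.26 to 0.50, all above 0, while 0 of 9 had separated responses, beside 105 of all 345 miRNAs (30.4%). let-7c-5p had bone marrow responses of 0.89 with amifostine and 0.22 with PBS, against -0.52 with amifostine and 0.69 with PBS in hypothalamus. Its tissue difference with PBS alone was -0.47, against 1.40 with amifostine alone. The family's median responses were 0.70 with amifostine and 0.16 with PBS in bone marrow, against -0.54 with amifostine and 0.61 with PBS in hypothalamus, so its order turned with the arm.

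The 7 miR-30 family strands had a median of 0.53, with 3 separated and bone marrow above, beside 81 of all 345 miRNAs (23.5%). The 3 miR-29 family members, regulators of collagen genes, had a median of 0.38 with none separated. The 8 members of miR-17-92 and its paralogs, a proliferation cluster, had a median of 0.27, near the 0.25 of all miRNAs, which was -0.03 in the authors' value table, and 1 separated, miR-106b-5p, at 0.80. miR-19b-3p of that cluster was 1 of the 2 miRNAs detected on all arrays and lower at 8 Gy in all 4 arms. It had responses of -0.17 with amifostine and -0.16 with PBS in bone marrow, against -0.64 with amifostine and -0.10 with PBS in hypothalamus. miR-7a-5p, abundant in hypothalamus, was the other, with -0.14 with amifostine and -0.37 with PBS in bone marrow, against -0.42 with amifostine and -0.01 with PBS in hypothalamus.

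**Figure D4:**
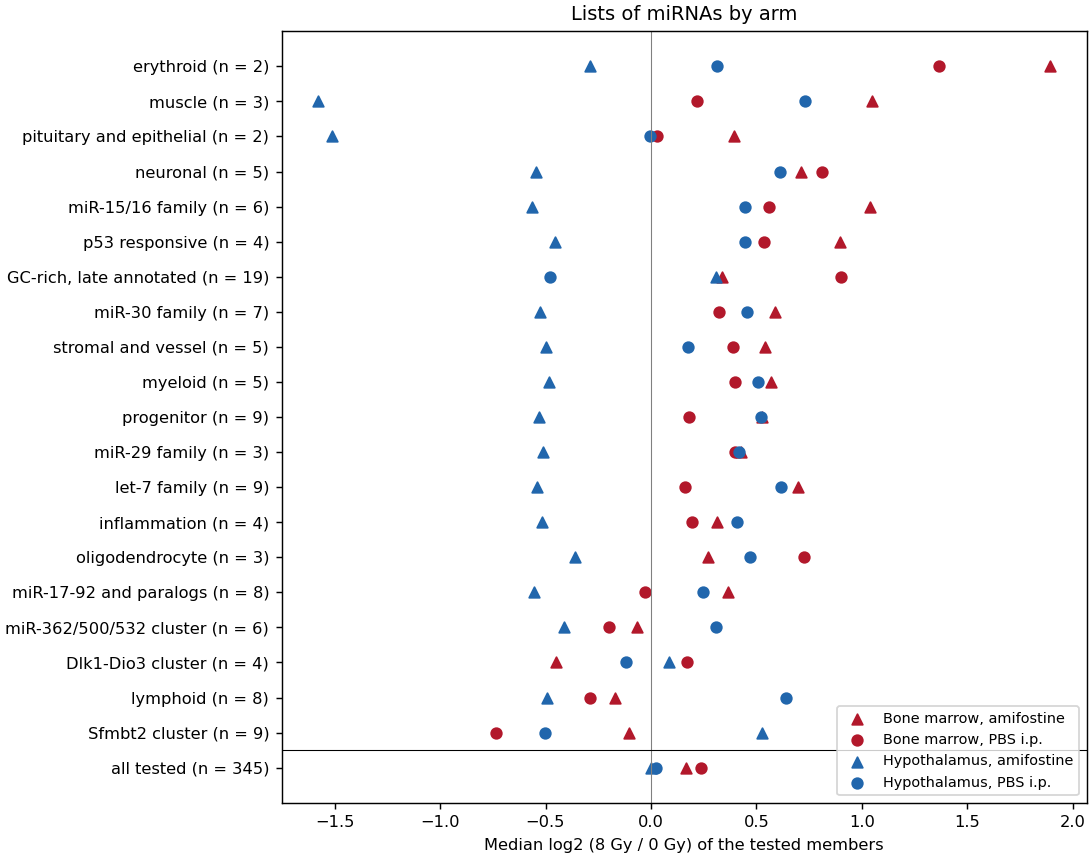
Median response to 8 Gy (log2 of 8 Gy over 0 Gy) of the tested members of each list by arm, with bone marrow in red and hypothalamus in blue, triangles for amifostine and circles for PBS; lists are ordered by the median tissue difference, with all 345 miRNAs at the bottom. In the miR-15/16 family the medians are 1.04 with amifostine and 0.56 with PBS in bone marrow, against -0.56 with amifostine and 0.45 with PBS in hypothalamus.

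Myeloid, progenitor, stromal and inflammation miRNAs had median tissue differences between 0.31 and 0.50, beside 0.25 over all miRNAs. The 5 myeloid members had a median tissue difference of 0.49. miR-223-3p, the granulocyte miRNA, had bone marrow levels at 8 Gy of 5.94 with amifostine and 6.26 with PBS, against 5.05 with amifostine and 5.75 with PBS at 0 Gy, while all hypothalamus levels lay at -3.50 or below. Its tissue difference was 0.85 ± 0.62 (95% interval -0.37 to 2.07; limma, adjusted p = 0.88). Among 9 progenitor miRNAs, with a median of 0.40, miR-222-3p, which restrains KIT, had 0.93, and the endothelial and stem cell miRNA miR-126-3p had 0.50. In nilestriol-treated bone marrow miR-126-3p responded by 2.19, against 0.36 to 0.54 in the 4 other bone marrow arms. miR-21a-5p, the most studied of the inflammation list, had bone marrow responses of 0.91 with amifostine and 0.52 with PBS, against -0.49 with amifostine and 0.48 with PBS in hypothalamus; with PBS alone the tissues differed by 0.04. miR-140-3p, a cartilage and stroma miRNA, had a tissue difference of 1.01 ± 0.62. The 5 stromal and vessel members had a median of 0.50 and the 4 inflammation members of 0.31. The inflammation members were divided, with the larger response in bone marrow for 2 of 4. Their responses were separated with bone marrow above for 2 and below for 1.

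Neuronal miRNAs could be compared for 5 of 17, since the others were not detected on 2 bone marrow arrays. Their median tissue difference was 0.86, beside 0.25 over all miRNAs. The response was larger in bone marrow for 4 of 5, beside 216 of all 345. miR-149-5p, miR-135a-5p and miR-212-3p had separated responses with bone marrow above, as did 81 of all 345 miRNAs (23.5%). The tissue difference of miR-128-3p, a hypothalamus marker detected in bone marrow, went the other way, at -0.79 relative to the median of all miRNAs. miR-135a-5p, detected on 7 of 8 arrays, had bone marrow responses of 0.99 with amifostine and 0.92 with PBS from a level near the floor, against -0.46 with amifostine and 0.23 with PBS in hypothalamus. miR-338-3p, an oligodendrocyte miRNA, had a tissue difference of 0.89 ± 0.62, and the 3 oligodendrocyte members a median of 0.29. No choroid plexus miRNA was detected in bone marrow. Neuron and glia miRNAs that were confined to hypothalamus on these arrays have no bone marrow response to compare.

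The GC-rich, late annotated miRNAs responded unevenly. Of 19 tested, 11 had the larger response in bone marrow, beside 216 of all 345. Separated with bone marrow above were 10, beside 81 of all 345 (23.5%). Separated with bone marrow below were 2, beside 24 of all 345 (6.96%). The list's median responses were 0.34 with amifostine and 0.90 with PBS in bone marrow, against 0.31 with amifostine and -0.48 with PBS in hypothalamus. The PBS arms thus carried most of the median tissue difference of 0.56. In the authors' value table that median was 0.07, beside 0.01 over all miRNAs. miR-3960, an osteoblast miRNA, and miR-877-5p, cut from an intron of Abcf1, were higher at 8 Gy in all 4 arms. All 4 responses had 1 sign for 11 miRNAs (3.19%). miR-3960 had responses of 0.96 with amifostine and 1.54 with PBS in bone marrow, against 0.26 with amifostine and 0.05 with PBS in hypothalamus. miR-877-5p had 0.92 with amifostine and 1.24 with PBS in bone marrow, against 0.21 with amifostine and 0.11 with PBS in hypothalamus; in the authors' value table its tissue difference was -0.14. miR-328-5p, miR-714 and miR-5620-3p were also higher in all 4 arms, with mean responses of 1.01, 0.65 and 0.55 in bone marrow, against 0.24, 0.26 and 0.25 in hypothalamus. miR-6368 had a tissue difference of 1.21 ± 0.62.

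The miRNAs of the Sfmbt2 cluster, a mouse placental imprinted cluster, had a median tissue difference of -0.56 over 9 members. In bone marrow their median responses were -0.10 with amifostine and -0.74 with PBS. In hypothalamus they were 0.53 with amifostine and -0.50 with PBS. In 3 of the 9 the response was larger in bone marrow, among them miR-669n, with a tissue difference of 0.63 and both bone marrow responses above both hypothalamus responses. The 6 members of the miR-362 to miR-532 cluster and the 4 of the imprinted Dlk1-Dio3 cluster each had a median of -0.11, and in them only miR-494-3p had separated responses.

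The response of hypothalamus reversed between its arms. Across the 345 miRNAs, which share arrays and are not independent, the 2 hypothalamus responses correlated at r = -0.84 and the 2 bone marrow responses at r = 0.60. The median gap between the arms was 0.99 in hypothalamus and 0.41 in bone marrow. The gap between the arms entered the shared residual SD of 0.44. In a fit with a single hypothalamus arm, whose error rests on bone marrow alone, 68 miRNAs passed in bone marrow (54 higher and 14 lower).

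Probe GC content moved with these responses. Its Spearman correlation with the response across miRNAs was 0.41 with amifostine and -0.24 with PBS in hypothalamus, and -0.16 with amifostine and 0.25 with PBS in bone marrow. For the tissue difference it was -0.04. In the third of miRNAs with the least GC, the median hypothalamus response was -0.48 with amifostine and 0.28 with PBS. In the third with the most GC it was 0.32 with amifostine and -0.26 with PBS. With the GC trend removed from each array, an alternative chosen after seeing the data, the 2 hypothalamus responses still correlated at r = -0.84.

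**Figure D5:**
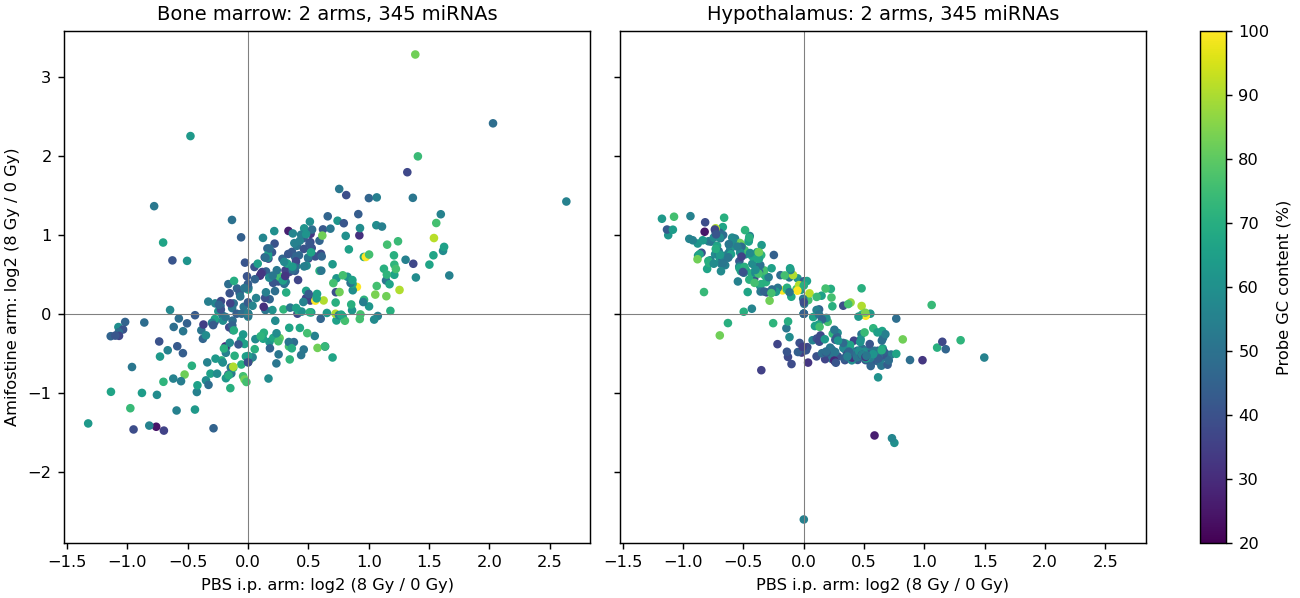
Response to 8 Gy (log2 of 8 Gy over 0 Gy) with PBS (x axis) and with amifostine (y axis) for 345 miRNAs in bone marrow (left) and hypothalamus (right), coloured by probe GC content. The bone marrow responses run in the same direction (r = 0.60) and the hypothalamus responses in opposite directions (r = -0.84).

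The calls of the tissue difference depended on which hypothalamus arm was used. Without the hypothalamus amifostine arm 8 miRNAs passed, 6 higher and 2 lower, and without the hypothalamus PBS arm 45 passed, 21 higher and 24 lower (limma). The 2 sets had 0 miRNAs in common. miR-3474, miR-181b-5p and miR-712-3p were in the first, and miR-34a-5p, miR-451a, miR-3107-5p, miR-5115, miR-30a-5p, miR-193a-3p, miR-16-5p and miR-677-5p in the second.

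In hypothalamus, the amifostine array at 0 Gy stood apart in muscle and epithelial miRNAs. miR-1a-3p, of heart and skeletal muscle, had a hypothalamus level at 8 Gy of -2.62 with amifostine and -2.36 with PBS, against -1.08 with amifostine and -2.95 with PBS at 0 Gy. The summed relative signal of the 4 muscle miRNAs was 1.03 on that array, against 0.27 to 0.43 on the 3 other hypothalamus arrays. miR-133a-3p had hypothalamus responses of -1.64 with amifostine and 0.75 with PBS, so its tissue difference of 1.07 ± 0.62 became -0.12 without the hypothalamus amifostine arm. miR-200c-3p, an epithelial miRNA, was at the floor on the other hypothalamus arrays and at -3.0 on that one. Its tissue difference of 1.98 ± 0.62 (limma, adjusted p = 0.178) was 0.43 in the PBS arms alone. All 11 listed pituitary and epithelial miRNAs were detected on that array, against 6 to 9 on the others. The part of other tissue in these values was not tested.

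Detection itself changed with dose for some miRNAs. Of the 345, 9 had a dose group of bone marrow with 0 of 2 arrays detected and none a dose group of hypothalamus. miR-30a-3p and miR-328-3p were detected in bone marrow at 8 Gy alone, and the 7 others, among them miR-181a-1-3p and miR-3084-5p, at 0 Gy alone. The signal did not always follow these flags. Among the 7, miR-700-3p had bone marrow responses of 0.07 with amifostine and 0.40 with PBS, and miR-342-5p was at the floor on all 4 bone marrow arrays. With amifostine and PBS in turn, miR-421-3p responded by 0 and -0.05, miR-466b-3p by -0.14 and -0.29, and miR-28a-5p by -0.06 and -0.57. miR-3084-5p was at -5.32 with amifostine and -5.61 with PBS at 8 Gy in bone marrow, against -3.84 with amifostine and -4.91 with PBS at 0 Gy. miR-181a-1-3p, the partner strand of miR-181a-5p, was at the floor in both arms at 8 Gy in bone marrow, against -4.93 with amifostine and -4.65 with PBS at 0 Gy, and was detected on all 4 hypothalamus arrays. Outside the 345, miR-363-3p, a paralog of miR-92a-3p, was detected on 0 of 2 bone marrow arrays at 8 Gy, against 2 of 2 at 0 Gy, and on no hypothalamus array.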

How the data were processed

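The authors hybridized Cy3-labelled RNA to 1-colour Agilent mouse miRNA arrays. The deposited spot intensity was made with Agilent Feature Extraction and is background-subtracted. Its version, 10.7.1.1, was read from the grid placement entry of the file headers. No spot was saturated. The authors' value table is deposited on a log2 scale, with a scaling not given in the sources used here. Spots not marked as outliers were averaged per probe and per miRNA, scaled on each array to the 75th percentile of the 277 commonly detected miRNAs, raised to a floor of log2 -5.61 (1.08% of the values of these 277 and 5.04% of all tested values) and log2-transformed. limma 3.58.1 in R 4.3.3 (lmFit and eBayes, two-sided, Benjamini-Hochberg over 345 miRNAs at 0.05) fitted arm within tissue as block, which left 2 residual degrees of freedom; eBayes gave all miRNAs 1 shared residual SD of 0.44. Detection flags were the scanner software's. Named miRNAs were the 12 highest and 12 lowest tissue differences among miRNAs on all 8 arrays with separated responses, up to 5 higher and 5 lower with 1 sign in all 4 arms, list members, and miRNAs detected at 1 dose alone; miR-22-3p, miR-186-5p and miR-712-3p were chosen after their values were seen. Of 241 entries in 24 lists, 233 were on the array. The miRNAs compared, the lists and the tests were chosen with earlier results of these data known. Alternatives covered scaling, background, floor, detection filter, model and single arms. The number of arrays limits the precision.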

Additional observations from a re-analysis of the deposited data

Results flagged for a closer look

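In 7 of the 24 miRNAs with the highest or lowest tissue differences, both bone marrow responses to 8 Gy had one sign and both hypothalamus responses the other. The 24 were chosen for separated responses, which favours such opposite signs, so the 7 are a description. Over all 345 miRNAs, 9 were higher in both bone marrow arms and lower in both hypothalamus arms (2.61%), and 8 the reverse (2.32%). The tissue difference was 1.33 for miR-3963, 1.29 for miR-6366, 1.22 for miR-5100 and 1.21 for miR-3968, which lay higher in bone marrow at 8 Gy and lower in hypothalamus. It was -0.96 for miR-139-3p, -0.74 for miR-546 and -0.66 for miR-6236, which lay the other way. The difference itself was tested with limma, and none of the 7 passed (adjusted p = 0.87 to 0.898). In bone marrow, miR-6236 with PBS responded by -0.01, so its sign there rests on a value near 0.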

How the results depend on the processing

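The tissue difference was passed by 0 miRNAs (15 at an unadjusted p under 0.05, limma) and by 0 under every alternative except normexp background correction, with 1 (miR-451a), and the fits without 1 arm, which ran from 0 to 45. In bone marrow, where 5 passed, 9 passed with a shared amifostine term, 22 with all 5 bone marrow arms, 12 with normexp, 12 with a constant added instead of the floor, 9 with the spread of all 14 arrays and 2 in the authors' value table (miR-30a-3p and miR-328-3p, none of the 5); with the scanner software's totals 4 passed, all lower and none of the 5; 0 passed with the scaling on all miRNAs, a detection filter over either tissue, no filter, no scaling or a plain linear model, and fits without 1 arm gave 0 to 68 (0 without the bone marrow amifostine arm, 1 without the bone marrow PBS arm, 68 without either hypothalamus arm). In hypothalamus, where 0 passed (1 at an unadjusted p under 0.05, limma), 1 passed among miRNAs detected on at least 1 array of each tissue, and 0 to 4 in fits without 1 arm; all 4 were lower and were found without the PBS arm. The following tissue differences changed sign. In the PBS arms alone they were -0.47 for let-7c-5p, -0.065 for miR-126-3p, -0.53 for miR-133a-3p, -0.35 for miR-181c-5p, -0.054 for miR-19b-3p and -0.25 for miR-1a-3p. In the amifostine arms alone they were 0.12 for miR-150-5p, 0.027 for miR-181a-5p, 0.25 for miR-181d-5p and 0.28 for miR-7a-5p. Without 1 arm they ran from -0.13 to 1.07 for let-7c-5p, -0.12 to 2.27 for miR-133a-3p, -0.98 to 0.24 for miR-150-5p, -0.22 to 0.46 for miR-181c-5p, -0.82 to 0.088 for miR-181d-5p, -0.063 to 0.47 for miR-19b-3p, -0.019 to 0.79 for miR-714 and -0.24 to 0.17 for miR-7a-5p. With all 5 bone marrow arms they were -0.054 for miR-181c-5p, -0.00303 for miR-19b-3p, -0.015 for miR-5620-3p and -0.28 for miR-714. In the authors' value table they were -0.15 for miR-181c-5p, -0.40 for miR-714 and -0.14 for miR-877-5p. With the scanner software's totals they were 0.45 for miR-5132-5p, -2.42 for miR-5620-3p, 0.76 for miR-677-5p and -0.38 for miR-714. miR-181c-5p was at -0.037 with the scaling on all miRNAs and at -0.11 with no scaling, miR-19b-3p at -0.021 with no scaling, and miR-7a-5p at 0.23 with normexp and 0.027 with outlier spots kept. The cause of these changes was not tested. With 1 pool per group, an effect of the pool and of the dose cannot be told apart, and a lone arm is assumed to vary like the rest. No paired analysis was possible by replicate number because each group had 1 array; the 8 Gy and 0 Gy arrays of an arm were paired in the fit, and without that block the same 5 passed in bone marrow and 0 for the tissue difference. Signals near the floor limit the dim miRNAs.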
